A study of Mus musculus with 4 samples.

Results

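The genes described here encode the MAP kinase cascades and the protein phosphatases that act on phosphorylated proteins: 49 genes of the 6726 named genes on the arrays. They were chosen by symbol, as all clones whose symbol in the deposited table begins with Mapk, Map2k, Map3k, Map4k, Dusp, Ptpn, Ppp1, Ppp2 or Ppm1, with 1 Dusp gene left out beforehand. These were 65 clone spots of 16896, and where several matched a gene, the brightest by its mean z-score stands for it. Of the 49 genes, 24 belong to the kinase cascades and 25 to the phosphatases and their partners. A current symbol replaced the older one in 4 cases: Lamtor3 was listed as Map2k1ip1, Tab2 as Map3k7ip2, Ptpa as Ppp2r4 and Sirpa as Ptpns1.

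RNA came from proliferating C2C12 cells, an established mouse myoblast line, grown in serum-supplemented medium. Cells had received an siRNA against HuR (Elavl1), an RNA-binding protein, or a control siRNA, with 2 arrays per group. The arrays carried spotted cDNA clones and were hybridised with 33P-labelled cDNA, so each spot gave 1 radioactive signal. The labels give neither the siRNA sequences nor the time after transfection, and nothing in them tells if replicate arrays stem from separate cultures. All p-values therefore rest on the spread among 4 arrays, part of which may be technical. In RNA from whole cultures, fewer cells with a transcript and less of it per cell cannot be told apart.

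MAP kinase cascades pass a signal along a chain of kinases: a MAP3K phosphorylates a MAP2K, which phosphorylates a MAP kinase on a threonine and a tyrosine of its activation loop. Dual-specificity phosphatases (DUSPs), tyrosine phosphatases (PTPNs) and the serine/threonine phosphatases PP1, PP2A and PPM1 remove phosphate at each level. In myoblasts the p38 branch is known for its part in differentiation and the ERK branch for its part in proliferation, and p38 is known to phosphorylate KSRP, a partner of HuR named in the study's title.

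Values are the authors' z-scores, in which 1 unit is 1 SD of all values in an array section. A difference is always the mean of the arrays labelled HuR siRNA minus the mean of the arrays labelled control siRNA, and a z-score difference is not a fold change. Elavl1 itself was at -0.2 and -0.21 on the HuR-labelled arrays and at -0.12 and -0.2 on the control-labelled arrays, a difference of -0.045 (SE 0.047, limma adjusted p = 0.991). The groups touched at 1 value, and the target mRNA was not measurably lower in this fit. The groups are therefore called by their labels throughout. With the median of each print grid removed Elavl1 differed by -0.11 (limma unadjusted p = 0.0488, adjusted p = 0.979). With the mean of all its clones it differed by -0.0075. Of the 8 myoblast markers listed, only vimentin (Vim) was among the named genes, at 0.57 to 0.64 on the 4 arrays, so the labelled cell type could hardly be checked. Of 6 blood, macrophage and endothelial markers 3 were measured (Cdh5, Lyz2 and Pecam1). All 3 lay lower on the HuR-labelled arrays, by -0.285, -0.06 and -0.08, as did 46.8% of all features on the arrays. The groups overlapped at Pecam1 and not at Cdh5 and Lyz2, while 13.6% of all features were lower without overlap. The wells adjoining the 3 clones on their source plates differed by -0.0025 (Cdh5), -0.032 (Lyz2) and -0.069 (Pecam1). The summed z-scores were -1.66 to -1.57 against -1.32 to -1.06. Of 5 osteoblast and chondrocyte markers Col2a1 (-0.1) and Runx2 (-0.08) were measured, with sums of 0.26 against 0.41 to 0.47. Both were lower without overlap, as were 13.6% of all features. The sums of the adipocyte marker Lpl (1 of 5 measured, 1.51 to 1.6 against 1.48 to 1.59) and of the neural markers Mbp and Tubb3 (2 of 4 measured, 1.37 against 1.18 to 1.47) overlapped. The part of these markers in the results was not tested.

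With the siRNA against HuR, none of the kinase and phosphatase genes differed past the threshold. Limma called 0 of 49 at an adjusted p under 0.05, as it called 0 of 14063 features in all (0%). At an unadjusted p under 0.05 stood 3 of the 49 genes (6.12%), beside 3.76% of all features. The phosphatase gene Ppm1g lay higher on the HuR-labelled arrays, beside a background of 1.42% in that direction. The kinase gene Map3k7 and the phosphatase gene Ptpn21 lay lower, beside a background of 2.34%. The median difference over the 49 genes was 0 z units, the same as over all features, with 20 genes above 0 (49.7% of all features were), 24 below (46.8% of all features) and 5 at exactly 0. Differences were small, at most 0.05 in size for 34 genes and at most 0.1 for 43. The median half-width of a gene's 95% interval was 0.147, and the number of arrays limits the precision.

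**Figure D1:**
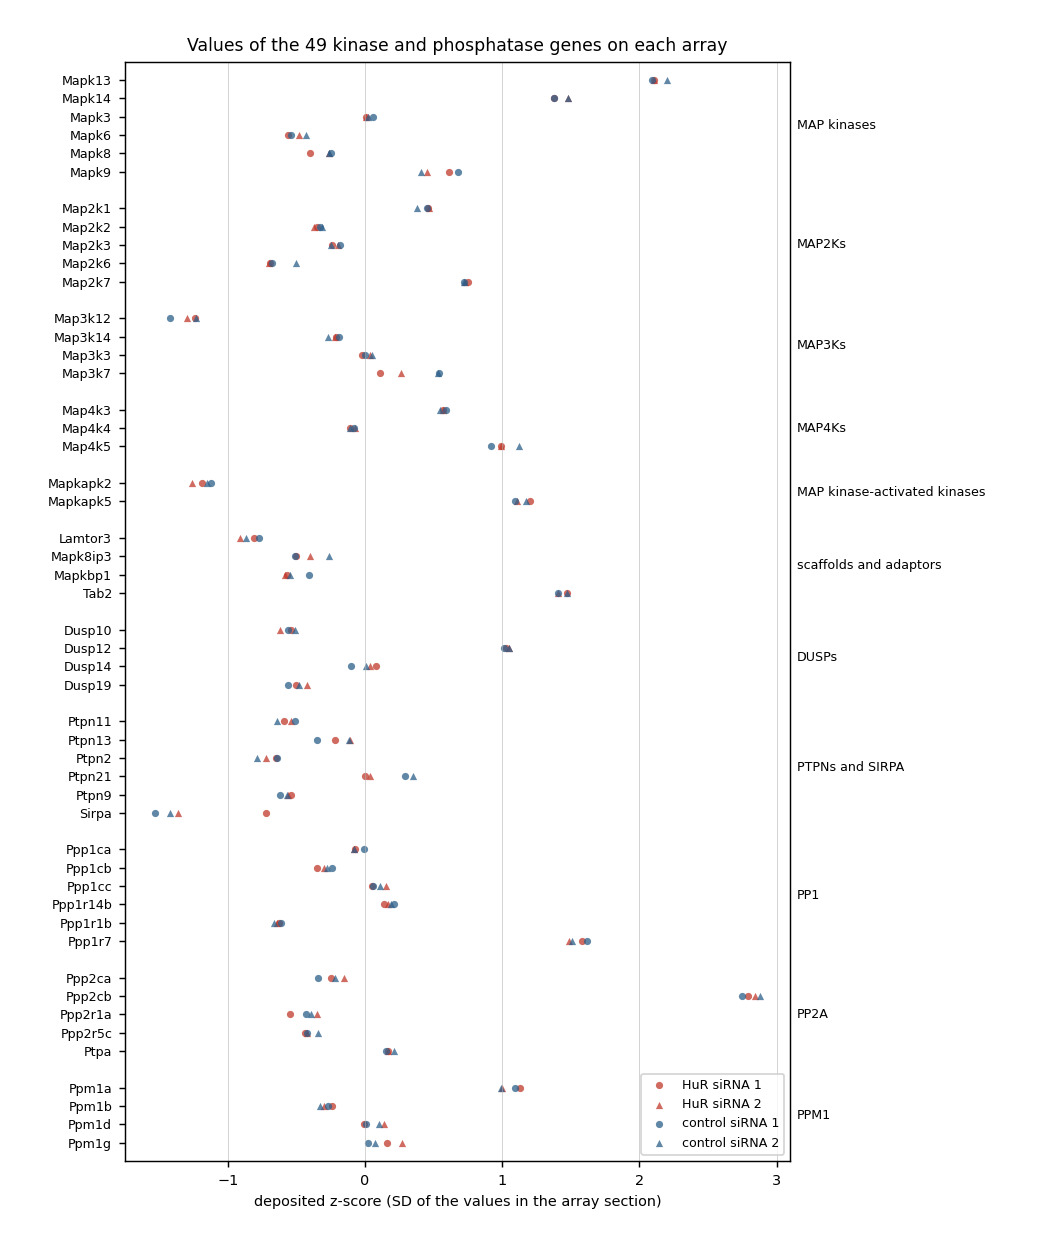
Deposited z-scores (horizontal axis, in SD of the values in the array section) of the 49 genes, in rows grouped by role. Each row holds 4 points, red for the HuR-labelled and blue for the control-labelled arrays, with circles for replicate 1 and triangles for replicate 2. In most rows the 4 points lie together, and 1 red point stands apart at Sirpa (-0.72). Red and blue points part clearly at Map3k7 and Ptpn21, whose clones both came from source plate 57.

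The arrays of the groups did not overlap at 15 genes (30.6%, beside 27.2% of all features). Of these 6 were higher (background 13.6%) and 9 lower (background 13.6%) on the HuR-labelled arrays. At most of them the gap was small. The difference was larger than the gap between replicates in both groups at 7 genes (14.3%, beside 18.1% of all features): Map3k7, Ptpn21, Ppm1g, Mapkapk2, Map2k2, Ppp1cb and Ppp1r14b.

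Among the MAP kinases, which phosphorylate transcription factors and other kinases at the end of the cascade, 0 of 6 lay higher, 5 lay lower and 1 was equal, and the median difference was -0.0325. Of all features 49.7% lay above 0 and 46.8% below. None of these 6 genes was at an unadjusted p under 0.05.

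Mapk3, which encodes the kinase ERK1, was at 0.01 and 0.01 on the HuR-labelled arrays and at 0.06 and 0.02 on the others. Its groups were parted by 0.01 at the nearest values, and the difference was -0.03 (SE 0.041). The stress-activated kinases did not part the groups. Mapk8, which encodes JNK1, was at -0.4 and -0.26 on the HuR-labelled arrays and at -0.25 and -0.26 on the control-labelled arrays, a difference of -0.075 (SE 0.061). A second Mapk8 clone differed by 0.035 (SE 0.056).

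Mapk9, which encodes JNK2, had the widest gap between control replicates of the MAP kinases, at 0.68 and 0.41, beside 0.61 and 0.45 on the HuR-labelled arrays. Mapk14, which encodes p38 alpha, was at 1.38 and 1.48 in both groups, so its difference was 0 (SE 0.062, 95% interval -0.166 to 0.166). The p38 delta gene Mapk13 (-0.035) and Mapk6, which encodes the atypical kinase ERK3 (-0.035), overlapped as well.

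Of the 5 MAP2Ks, the kinases that activate MAP kinases, 2 lay higher and 3 lower, with differences of -0.105 to 0.05. Map2k1, which encodes the ERK activator MEK1, was at 0.46 and 0.47 on the HuR-labelled arrays and at 0.45 and 0.38 on the control-labelled arrays (0.05, SE 0.045). Its second clone differed by -0.1 (SE 0.094), in the other direction. Map2k2, which encodes MEK2, was at -0.35 and -0.37 against -0.33 and -0.31, a difference of -0.04 (SE 0.039) that parted the groups narrowly.

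The p38 activators Map2k3 and Map2k6 differed by -0.005 and -0.105. Map2k6 was at -0.69 and -0.7 on the HuR-labelled arrays and at -0.68 and -0.5 on the others, and the difference was -0.015 without control siRNA replicate 2 and -0.195 without replicate 1 (limma unadjusted p = 0.687 and 0.0234). The JNK activator Map2k7 differed by 0.02 (SE 0.039).

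At the level above, 2 of 4 MAP3Ks lay higher and 2 lower. Map3k7 encodes TAK1, a kinase that feeds the JNK, p38 and NF-kappaB pathways. It was at 0.11 and 0.26 on the HuR-labelled arrays and at 0.54 and 0.53 on the control-labelled arrays. Both HuR-labelled values were below both control values, a difference of -0.35 (SE 0.064, 95% interval -0.523 to -0.177) that did not pass the threshold (limma unadjusted p = 0.00438, adjusted p = 0.991). The unadjusted p was 0.0631 without control siRNA replicate 1 and 0.0598 without replicate 2. The other MAP3Ks overlapped between the groups: Map3k12 (0.055), Map3k14 (0.015) and Map3k3 (-0.015).

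**Figure D2:**
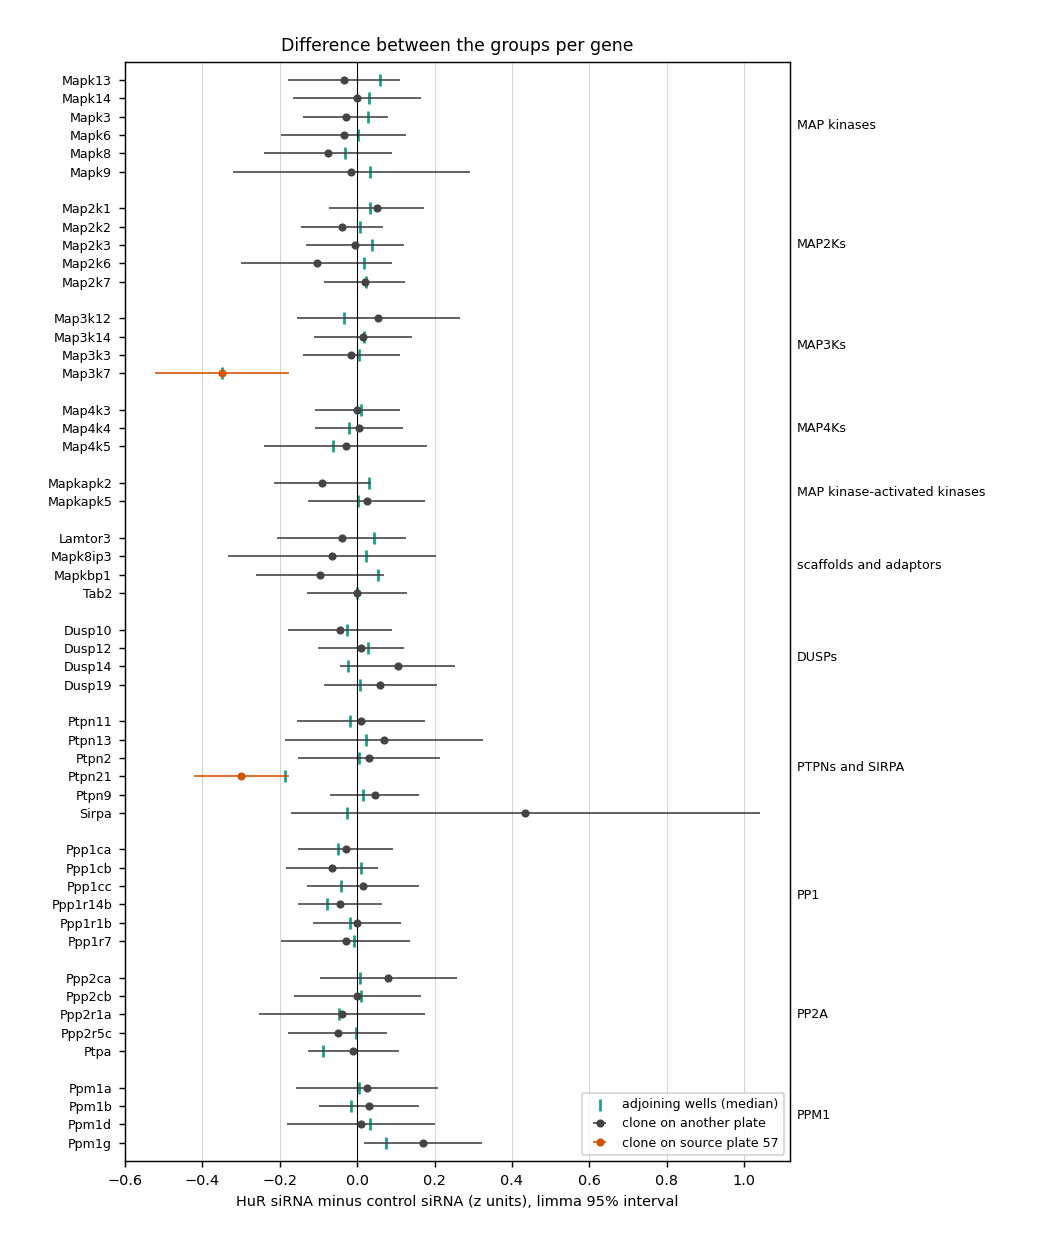
Difference between the groups (horizontal axis, z units, HuR siRNA minus control siRNA) for the 49 genes, with limma's 95% interval as the bar. Orange marks the 2 genes whose clone came from source plate 57, and the green tick is the difference of the wells that adjoin the gene's well on its source plate. For Map3k7 the tick (-0.349) lies on the gene's own value (-0.35).

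The 3 MAP4Ks, kinases upstream of MAP3Ks, lay within -0.03 and 0.005. Map4k3 differed by 0, Map4k4 by 0.005 and Map4k5 by -0.03, and none parted the groups. Of the kinases activated by MAP kinases, Mapkapk2, a target of p38, was at -1.19 and -1.26 on the HuR-labelled arrays and at -1.12 and -1.15 on the control-labelled arrays (-0.09, SE 0.046). Its groups did not overlap. Mapkapk5 differed by 0.025 (SE 0.056) on the clone used. Its second clone was at -1.16 and -1.11 against -1.6 and -1.27, a difference of 0.3 (SE 0.12) that did not appear on the first.

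Scaffolds and adaptors bring the kinases of a cascade together. Of 4, none lay higher, 3 lay lower (46.8% of all features did) and 1 was equal. The JNK-binding protein gene Mapkbp1 was at -0.57 and -0.58 on the HuR-labelled arrays and at -0.41 and -0.55 on the others (-0.095, SE 0.061), and the difference was -0.025 without control siRNA replicate 1 and -0.165 without replicate 2 (limma unadjusted p = 0.517 and 0.0327). The JNK scaffold Mapk8ip3 (-0.065) and the MEK1 partner Lamtor3 (-0.04) overlapped. Tab2, an adaptor that binds TAK1, was at 1.47 and 1.41 on the HuR-labelled arrays and at 1.41 and 1.47 on the others, a difference of 0 (SE 0.048). A second Tab2 clone differed by -0.065 (SE 0.047) and parted the groups.

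Among the phosphatases and their partners, 14 of 25 genes lay higher, 9 lower and 2 were equal, with a median of 0.01. In the cascades 6 of 24 lay higher, 15 lower and 3 were equal, with a median of -0.0225. Of all features 49.7% lay above 0 and 46.8% below, and a contrast between these 2 sets of genes was not tested. Of the 4 DUSPs, which remove phosphate from both the threonine and the tyrosine of their substrates, 3 lay higher. Dusp14 was at 0.08 and 0.04 on the HuR-labelled arrays and at -0.1 and 0.01 on the control-labelled arrays (0.105, SE 0.055), without overlap. Dusp19 (0.06), Dusp12 (0.01) and Dusp10 (-0.045) overlapped.

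Of the non-receptor tyrosine phosphatases, Ptpn21, a large phosphatase with a FERM domain, was at 0 and 0.04 on the HuR-labelled arrays and at 0.29 and 0.35 on the control-labelled arrays. The groups were parted by 0.25 at their nearest values. The difference was -0.3 (SE 0.045, 95% interval -0.423 to -0.177, limma unadjusted p = 0.0021, adjusted p = 0.991), again short of the threshold. A second Ptpn21 clone on plate 68 was at -0.81 and -0.73 against -0.74 and -0.72 (-0.04, SE 0.048). Another, on plate 72, was at -1.67 and -1.94 against -1.73 and -1.92 (0.02, SE 0.119). Neither of these parted the groups, and the mean of all 3 clones differed by -0.107.

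Ptpn11, which encodes SHP2, a phosphatase needed for ERK activation by many receptors, was at -0.59 and -0.54 on the HuR-labelled arrays and at -0.51 and -0.64 on the others, a difference of 0.01 (SE 0.061). Ptpn13 (0.07), Ptpn2 (0.03) and Ptpn9 (0.045) were also above 0. The difference of greatest size among the 49 genes was that of Sirpa, at 0.435 (SE 0.225), which encodes a membrane receptor that recruits SHP2 and is not itself a phosphatase. It was at -0.72 on HuR siRNA replicate 1 and at -1.36 on replicate 2, beside -1.53 and -1.42 on the control-labelled arrays. Without HuR siRNA replicate 1 the difference was 0.115, and without replicate 2 it was 0.755 (limma unadjusted p = 0.25 and 0.00816). The value of control siRNA replicate 1 was the most frequent value of its section.

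The 6 PP1 genes lay between -0.065 and 0.015. The catalytic subunit genes were Ppp1ca (-0.07 and -0.08 against -0.01 and -0.08), Ppp1cb (-0.35 and -0.3 against -0.24 and -0.28) and Ppp1cc (0.05 and 0.15 against 0.06 and 0.11), HuR-labelled arrays first. Their differences were -0.03 (SE 0.045), -0.065 (SE 0.044) and 0.015 (SE 0.054), and only the groups of Ppp1cb did not overlap. Of the regulatory subunits, the inhibitor Ppp1r14b was at 0.14 and 0.17 against 0.21 and 0.19 (-0.045, SE 0.04). Ppp1r7 differed by -0.03 and Ppp1r1b, the inhibitor known as DARPP-32, by 0.

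No PP2A gene parted the groups on the clone used. Ppp2ca, a catalytic subunit gene, was at -0.25 and -0.15 on the HuR-labelled arrays and at -0.34 and -0.22 on the others (0.08, SE 0.066). Its second clone was at -0.36 and -0.41 against -0.24 and -0.25, a difference of -0.14 (SE 0.043, limma unadjusted p = 0.0277) in the opposite direction. The other catalytic subunit gene, Ppp2cb, was at 2.79 and 2.84 against 2.75 and 2.88, a difference of 0 (SE 0.061).

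The scaffold subunit gene Ppp2r1a was at -0.55 and -0.35 against -0.43 and -0.39, a difference of -0.04 (SE 0.079), with the widest replicate gap of this group on the HuR-labelled arrays (0.2). Ppp2r5c, a regulatory subunit that targets the enzyme to substrates, differed by -0.05 on the clone used and by 0.2 (SE 0.074) on its second clone. The PP2A activator Ptpa differed by -0.01.

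All 4 PPM1 genes, metal-dependent phosphatases that act on stress-activated kinases among other substrates, lay above 0, as did 49.7% of all features. Ppm1g was at 0.16 and 0.27 on the HuR-labelled arrays and at 0.02 and 0.07 on the control-labelled arrays. The groups did not overlap, and the difference was 0.17 (SE 0.056, 95% interval 0.018 to 0.322, limma unadjusted p = 0.0354, adjusted p = 0.991). The print grid of its clone ran higher too, with a median of 0.11. Ppm1a was at 1.13 and 1 against 1.09 and 0.99 (0.025, SE 0.068). Its 3 other clones differed by 0.05, 0.09 and 0.105, of which 2 (0.05 and 0.105) parted the groups. The wells around these 3 clones differed by -0.013, 0.025 and 0.0825, and the print grid of the last had a median of 0.0525. Ppm1b (0.03, SE 0.048) and Ppm1d (0.01, SE 0.071) overlapped, and the second Ppm1b clone differed by 0.09 (SE 0.062).

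The clones of Map3k7 and Ptpn21 came from the same 96-well source plate, number 57, in wells F9 and E5. Of its 85 features, 26 lay lower with an unadjusted p below 0.05. The lower wells were not scattered. In the block of wells from E5 to H10, a block drawn after the values were seen, all 24 wells were below 0, with a median difference of -0.365 (from -0.475 to -0.06). The other 72 wells had a median of -0.025 (from -0.37 to 0.21). Both HuR-labelled arrays lay below and both control-labelled arrays above the wells' own means in that block, with median deviations of -0.245 and -0.104 against 0.143 and 0.204.

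**Figure D3:**
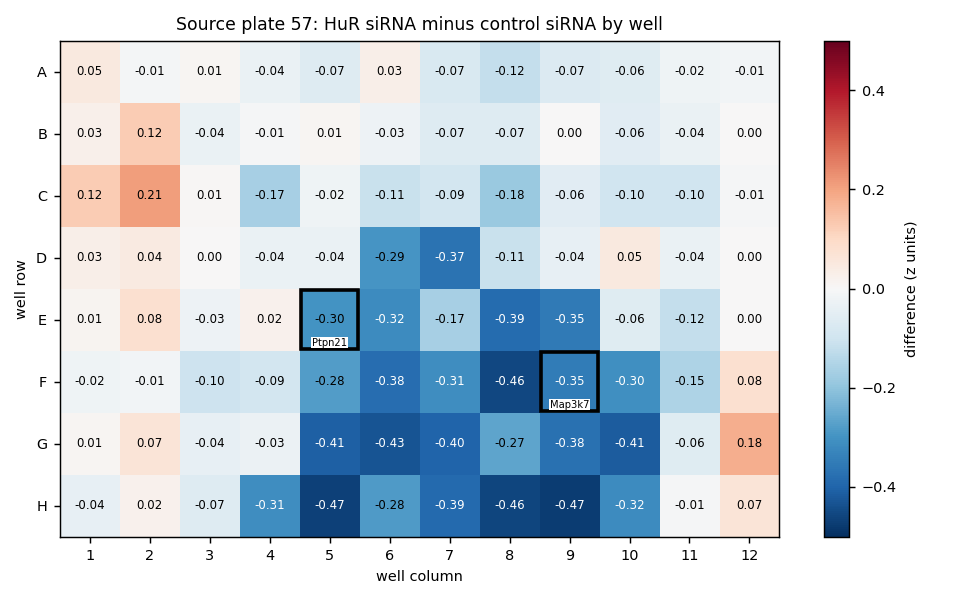
Difference between the groups (colour and printed value, z units, HuR siRNA minus control siRNA) in each of the 96 wells of source plate 57, by well row and column. Black frames mark Ptpn21 (E5) and Map3k7 (F9). Blue wells fill the block from E5 to H10, where all 24 values are below 0, and the 2 framed wells lie inside it.

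All 8 wells that adjoin Map3k7 were lower on the HuR-labelled arrays, by -0.455 to -0.06. With their median deviation removed from each array the difference of Map3k7 was -0.00125 (limma unadjusted p = 0.98). Around Ptpn21, at the corner of the block, 7 of 8 adjoining wells were lower, and its difference became -0.114 (unadjusted p = 0.0569). On the array each well of the plate lay in a print grid of its own, beside spots from other plates. The 21 other spots in the grid of Map3k7 had a median difference of 0.01, and those in the grid of Ptpn21 0.015. The median difference over the plate's features was -0.055. With each array's own median over the plate removed, Map3k7 differed by -0.268 and Ptpn21 by -0.218. What the wells of the block share was not tested, and a difference of these clones cannot be told apart from that of the block. Without plate 57, 1 of 48 genes, Ppm1g, was at an unadjusted p under 0.05, beside 3.61% of all features. Ptpn21, by its next clone, differed by -0.04.

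Off that plate, the wells adjoining the other 47 genes differed by -0.088 to 0.074. The upper end was that of Ppm1g, well F11 of plate 27, where 7 of 8 adjoining wells lay higher. In its print grid 18 of the 21 other spots lay higher, with a median of 0.11. With grid medians removed Ppm1g differed by 0.058 (unadjusted p = 0.309), and with the adjoining wells removed by 0.096 (unadjusted p = 0.0919). Such shifts are close in size to the genes' own differences, which were at most 0.1 for 43 of the 49. Ppp1cb (-0.065) and Map2k6 (-0.105) lay in print grids with medians of -0.06 and -0.0675. The wells around Ppp1r14b (-0.045) differed by -0.0775. At Mapkapk2 (-0.09) and Mapkbp1 (-0.095) the adjoining wells ran the other way, by 0.031 and 0.055. The part of such shifts in these differences was not tested.

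For 18 of the 49 genes 2 or more clones were spotted, 39 clones in all, and they allow a gene to be read more than once. All clones of a gene had the same sign at 7 genes and not at 11. No gene had every clone part the groups in 1 direction. Ppm1a was the only one with 4 clones, and all of these were above 0. The highest of these (0.105) lay among wells that differed by 0.0825. For Ppp2ca and Ppp2r5c the clones lay on opposite sides, by 0.08 and -0.14, and by -0.05 and 0.2. Whether clones of a gene cover the same transcript stretch is not given in the sources used here.

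**Figure D4:**
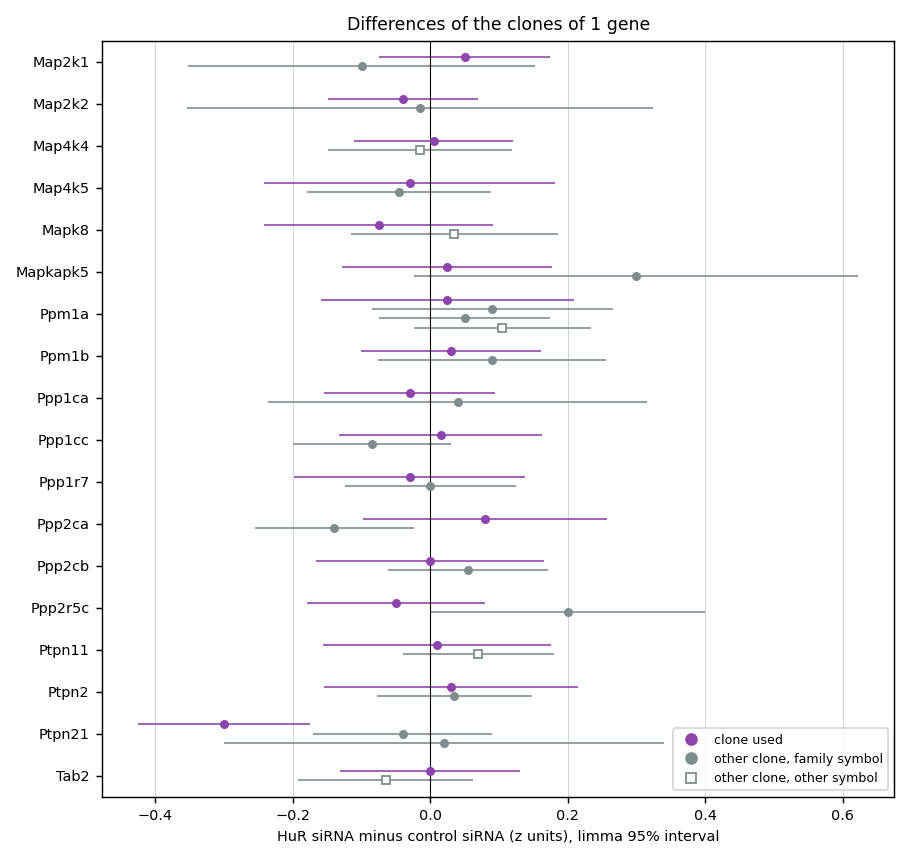
Difference between the groups (horizontal axis, z units, with limma's 95% interval from a fit over all clones) for each clone of the 18 genes with several clones. Purple is the clone used, grey circles are other clones listed under a symbol of these families, and open squares are clones brought to the gene by its identifier. The purple interval lies away from 0 at Ptpn21 while the intervals of its other clones span 0.

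The rest of the pathway gave no calls either. Upstream of the cascades, 17 of 31 listed Ras, Raf and adaptor genes had a clone. Of these 10 lay higher and 7 lower (median 0.03), and 0 passed limma's adjusted threshold. At an unadjusted p under 0.05, where 3.76% of all features stood, were 2 of these 17: the adaptor Shc1, which links receptors to Ras, was at 1.98 and 2.05 against 1.9 and 1.88 (0.125, SE 0.046), and Spred2, an inhibitor of Raf activation, was at -0.59 and -0.57 against -0.43 and -0.45 (-0.14, SE 0.039). The wells around Shc1 and Spred2 differed by 0.04 and 0.025. Hras and Nras differed by 0.075 and 0.1 and overlapped.

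Of the targets downstream of MAP kinases 24 of 34 were measured, 13 higher, 10 lower and 1 equal (median 0.0075), with 0 past the adjusted threshold. The transcription factor gene Jun, a target of JNK, was at -0.42 and -0.32 against -0.08 and -0.09 (-0.285, SE 0.051). It was 1 of 24 at an unadjusted p under 0.05 (3.76% of all features), and the wells around it differed by -0.081. Of the other protein phosphatases 27 of 40 were measured, 12 higher, 14 lower and 1 equal (median -0.005). Ppp3ca, a catalytic subunit of calcineurin, was at -1.25 and -1.27 against -1.03 and -1.12 (-0.185, SE 0.049). It was 1 of 27 at an unadjusted p under 0.05 (3.76% of all features), and the wells around it differed by 0.044.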

How the data were processed

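The deposited values are z-scores, a score with no unit: within each of 2 sections of 8448 spots every array has mean 0 and SD 1, as read from the values that the authors deposited. The labels name no scanner, background correction, log base or transformation. The 2 deposited tables held equal values in all 67584 cells. The siRNA and the last number in each column name gave its sample. A further number, the same in each of these column names, is not explained in the labels. The name of the table itself refers to NPM, not HuR. The 16840 clone spots were named through gene IDs, accessions and symbols with the RefSeq table of GRCm38.p6, spots of 1 clone were averaged, and 1 clone was kept per gene, which left 14063 features. The values were used without further normalization. Limma 3.58.1 in R 4.3.3 (lmFit, eBayes, two-sided, no block) was fitted over all features with Benjamini-Hochberg adjustment and a threshold of 0.05. The fit was also run on simulated data with independent noise in each feature. Those data held no shift shared by wells or print grids, so they cannot show how the fit handles such shifts. With 2 arrays in each group the smallest exact permutation p is 0.333. Adjoining wells are the up to 8 wells around a clone on its 96-well plate, and a spot's deviation is its value minus its mean over the arrays. Genes given with values were those at an unadjusted p under 0.05, on plate 57, with all clones parted in 1 direction (none), and a list of core enzymes; further ones were picked with their values in view. A further 2 genes reached by the symbol rule or a list are not reported here: they stayed in the fit and are in no count of these genes or lists. The genes and lists were chosen with earlier results of these data known. Precision is limited by the number of arrays, with a median SE of 0.052 over features.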

Additional observations from a re-analysis of the deposited data

Results flagged for a closer look

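Signal was present in spots that are not among the compared features: 19 of 52 spots annotated as empty exceeded 0 on each of the 4 arrays (mean z-scores from 0.508 to 2.15). All 19 lay in the second array section. Of the clones used here, those of Map2k2 and Ptpn9 lay in print grids that hold such a spot. Empty spots did count in the medians of print grids and of adjoining wells, and in the quantile normalization. What this means for the values of Map2k2 and Ptpn9 was not tested.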

How the results depend on the processing

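A pair of alternatives was chosen after seeing the data: leaving out source plate 57 and removing the adjoining wells. The count of the 49 genes past the adjusted threshold was 0 under all alternatives run, and the count over all features was 0 except with quantile normalization within sections, where it was 1 (limma adjusted p = 0.0238, not one of the 49 genes, and the cause was not tested). The genes at an unadjusted p under 0.05 numbered 3 in the fit used above, beside 3.76% of all features. They numbered 1 without plate 57 (3.61% of all features), where Map3k7 has no clone and another clone stands for Ptpn21. With adjoining wells removed they numbered 0 (limma, with 545 of 14063 features, 3.88%, at an unadjusted p under 0.05). They numbered 2 with the mean of all clones (3.75% of all features), where Ptpn21 (-0.107, limma unadjusted p = 0.0641) dropped out. With grid medians removed they numbered 3 (4.84% of all features), and Ptpn2 took the place of Ppm1g. Ptpn21 stayed under 0.05 without each array in turn, while Map3k7 (0.0631 and 0.0598 without control siRNA replicates 1 and 2) and Ppm1g (0.109, 0.179 and 0.11 without HuR siRNA replicate 2 and control siRNA replicates 1 and 2) did not. The median difference over the genes stayed between -0.015 and 0.0025.

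Of 17 named genes, Elavl1 included, 7 never changed sign, counting Mapk14 and Ppp2cb, whose difference of 0 has none (-0.05 to 0.05 and -0.065 to 0.065 over the alternatives). With grid medians removed the sign turned for Map2k2 (0.015), Mapk3 (0.0025), Ppp1cb (0.0425) and Ppp2r1a (0.0375). With the mean of all clones it turned for Map2k1 (-0.025), Ppp1ca (0.005), Ppp1cc (-0.035) and Ppp2ca (-0.03), with plate medians removed for Ppm1a (-0.0475), and with adjoining wells removed for Ppp1ca (0.0188) and Ppp2r1a (0.0075). Leaving out 1 array gave ranges that span 0 for Ppm1a (-0.04 to 0.09), Ppp1ca (-0.065 to 0.005), Ppp1cc (-0.035 to 0.065), Ppp2r1a (-0.14 to 0.06) and Ptpn11 (-0.055 to 0.075). None of these genes passed the adjusted threshold in any fit, and the cause of the turns was not tested.

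With the replicate number as a replicate block 0 features passed, 858 features were at an unadjusted p under 0.05 (529 without it, and 278 without the lower 50% of features, where fewer were tested), 3 of the 49 genes were at an unadjusted p under 0.05 (Map3k7, Ptpn21 and Ppm1g, as without it). The correlation between same-numbered arrays, taken over deviations from group means, was 0.102, and 2 pairs cannot show whether the numbers pair the arrays. Leaving out an array leaves 1 array in its group, which is assumed to vary like the other group.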

Other observations

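A further 23 genes of the same families were listed in the deposited table under older symbols and reached a family symbol through their identifiers. Of these 15 lay higher (49.7% of all features did), 7 lower (46.8% of all features) and 1 was equal. Their median was 0.035, and 0 passed limma's adjusted threshold. The groups did not overlap at 7 that were higher and 1 that was lower, beside 13.6% of all features in each direction. Ppp1r15a, a PP1 subunit that directs the enzyme to a translation initiation factor under stress, was at -0.13 and -0.13 on the HuR-labelled arrays and at -0.28 and -0.3 on the control-labelled arrays (0.16, SE 0.039, limma unadjusted p = 0.0125, adjusted p = 0.991). Its clone, in well G12 of plate 27, adjoins that of Ppm1g in F11, and the wells around it differed by 0.081. The PP1 inhibitor Ppp1r2 was at -0.14 and -0.03 against -0.2 and -0.17 (0.1, SE 0.054), and Ppp2r2d, a regulatory subunit of PP2A, at -0.35 and -0.43 against -0.52 and -0.45 (0.095, SE 0.053). Dusp16, a JNK phosphatase, was at 0.69 and 0.69 against 0.64 and 0.66 (0.04, SE 0.039). Ppp2r5e, a regulatory subunit of PP2A, was the one that parted the groups downwards, at 0.27 and 0.21 against 0.35 and 0.28 (-0.075, SE 0.049), and the wells around it differed by -0.074.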
